A study of Mus musculus with 2 samples.

Results

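The major histocompatibility complex (MHC) genes were followed through single-cell transcriptomes of Nes-GFP+ cells from the brain and the lung of adult mice. The 9 genes were listed by name, 5 of the class I pathway (H2-D1, H2-K1, B2m, Tap1 and Psmb8) and 4 of class II (Cd74, H2-Aa, H2-Ab1 and H2-Eb1). All 9 were counted in both libraries, among 25814 genes with counts in at least 1 of them (23906 in the brain and 23156 in the lung). The mice carried a transgene in which regulatory elements of Nestin drive GFP, and they were untreated adults of about 6 weeks. The strain label reads C57BL/6. In the methods, however, transgenic lines were bred with wild-type animals from a CD1 or a mixed CD1/C3H stock. Both tissues were dissociated with trypsin and GFP+ cells were sorted before droplet capture with the 10x 3' v3 chemistry, so cells that do not activate the reporter were under-represented.

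MHC class I molecules carry peptides made inside the cell to the surface, where CD8 T cells read them. Each is a heavy chain (H2-D1, H2-K1) paired with beta-2 microglobulin (B2m). The peptides are cut by the proteasome, in which Psmb8 is an interferon-induced catalytic subunit, and they enter the endoplasmic reticulum through a transporter of which Tap1 is one chain. MHC class II molecules present peptides from engulfed material to CD4 T cells and are made mainly by dendritic cells, macrophages, B cells and some epithelia. H2-Aa and H2-Ab1 encode the alpha and beta chains of one class II molecule, H2-Eb1 the beta chain of the other, and Cd74 the invariant chain that holds the groove shut until a peptide is loaded. Neurons and their progenitors are known for low class I, and blood vessel endothelium for high class I.

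There was 1 library of each tissue, so no difference between tissues or classes could be tested against the spread between animals. Levels are unique molecular identifiers (UMIs) summed over a class of cells and scaled to 1000000 UMIs of that class (CPM). The intervals, at 95%, are exact Poisson for levels, exact conditional binomial for ratios and Clopper-Pearson for shares, and they cover counting error only. After filters on genes and mitochondrial counts, 4151 of 4640 brain barcodes (median 4209 UMIs) and 5608 of 5981 lung barcodes (median 5585 UMIs) were kept. The libraries had 15 barcodes in common. Cells were classed by marker genes, and a cell joined a class with at least 3 of its markers detected and at least 2 more than for any other class, which placed 3689 brain and 4189 lung cells. The other 462 and 1419 cells met no gate.

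The classes compared most were the brain NB-like (neuroblast) cells (1902 cells), the brain qNSC/astrocyte-like cells (827 cells, quiescent neural stem cells and astrocytes together), the aNSC-like cells (81 cells, activated neural stem cells), and endothelial-like and mural/pericyte-like cells of both tissues (310 and 152 cells in the brain, 590 and 2211 in the lung). Endothelial cells line vessels, and mural cells and pericytes wrap them. A median of 7 of a cell's own markers was detected in each of these classes except aNSC-like, which had 6. The median for the nearest other class was 1 in the NB-like, qNSC/astrocyte-like and both endothelial-like classes, 2 in brain mural cells, and 3 in lung mural and aNSC-like cells. Cells at the edge of the gate made up 49.4% of the aNSC-like class, 18.7% of the lung mural class and between 2.54% and 6.89% of the others. The 10 genes that best marked the brain endothelial-like class included the haemoglobin genes Hbb-bs and Hba-a1, which belong to red blood cells, beside Cldn5 and Flt1. On clustering, brain endothelial-like and mural cells lay almost wholly in 1 cluster each (309 of 310 and 151 of 152 cells). Their lung counterparts were spread over several, with 1377 of the 2211 mural cells in cluster 0 and 372, 141 and 75 of the 590 endothelial-like cells in clusters 4, 10 and 17.

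H2-D1 was low in the neuroblast lineage and high in the epithelial-like and endothelial-like classes. The lowest value, 13.5 CPM (1.63 to 48.6), was that of the 24 matrix fibroblast-like cells of the lung, which rests on 2 UMIs and whose interval overlapped that of NB-like cells. In brain NB-like cells it was counted at 23.9 CPM (20.8 to 27.3). In aNSC-like cells it stood at 34.0 CPM (21.8 to 50.6) and in qNSC/astrocyte-like cells at 39.5 CPM (33.0 to 47.0). As class sums these 3 neural classes lay within a narrow range, and the interval of the aNSC-like class overlapped both others. Cells inside the qNSC/astrocyte-like class differed more widely, as given below. Glial classes came next, with 74.8 CPM in OPC-like cells (oligodendrocyte precursors), 83.1 CPM in ependymal-like cells and 139.6 CPM in mOL-like cells (mature oligodendrocytes). In the mOL-like class 54 of the 63 UMIs came from 1 cell. Brain mural cells held 259 CPM (212 to 313) and brain endothelial-like cells 748 CPM (699 to 799). In the lung, mural cells stood at 48.9 CPM (44.9 to 53.3), much nearer to the neural classes of the brain than to brain mural cells. Lung endothelial-like cells reached 850 CPM (819 to 881).

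H2-K1, the other classical heavy chain, followed H2-D1 except in astroglia and ependyma. NB-like cells held 3.44 CPM (2.34 to 4.88) and aNSC-like cells 7.09 CPM (2.30 to 16.5). The qNSC/astrocyte-like class stood at 118 CPM (107 to 131) and the ependymal-like class at 211 CPM (172 to 255). Brain mural cells had 85.5 CPM of H2-K1 (59.6 to 119), below the ependymal-like class and with an interval that overlapped that of the qNSC/astrocyte-like class, whereas for H2-D1 they were above both. Brain endothelial-like cells held 431 CPM (395 to 471) and lung endothelial-like cells 409 CPM (388 to 431). Lung mural cells had 17.8 CPM (15.4 to 20.5).

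The 250 bases before the start of both genes are shown because the 2 genes are near copies whose balance differed between classes. They are the RefSeq sequences of GRCm38.p6, for H2-D1 at chr17:35262844-35263093 on the plus strand and for H2-K1 at chr17:34000334-34000583 on the minus strand, each written 5' to 3' in the direction of the gene. Capitals mark the letters GGGATTCCC (a form of the site bound by NF-kappa B), CCAAT or its other-strand form ATTGG, and TGACG, the core of the cyclic AMP response element.
H2-D1: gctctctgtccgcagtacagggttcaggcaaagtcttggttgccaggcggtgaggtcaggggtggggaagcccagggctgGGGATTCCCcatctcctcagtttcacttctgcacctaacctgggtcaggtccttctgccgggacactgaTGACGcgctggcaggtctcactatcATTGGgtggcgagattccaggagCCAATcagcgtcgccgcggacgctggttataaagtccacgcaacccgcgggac
H2-K1: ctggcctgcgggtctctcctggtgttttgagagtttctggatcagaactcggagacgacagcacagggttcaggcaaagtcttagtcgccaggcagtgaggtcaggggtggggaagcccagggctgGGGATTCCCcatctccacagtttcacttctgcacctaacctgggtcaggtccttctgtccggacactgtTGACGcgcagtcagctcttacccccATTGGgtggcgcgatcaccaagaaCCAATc
Laid against each other without gaps, the 2 stretches were identical at 169 of 204 bases (82.8%), with an unbroken shared run of 47 bases around GGGATTCCC. That motif, read on both strands, was found in 99 of 32851 promoter stretches of this length (0.301%). CCAAT was found in 33.9% and TGACG in 17.8% of them. The letters are the same in the 2 genes, and such a match describes the sequence only. RefSeq has 2 entries for H2-K1, and the one shown starts further downstream. In the GENCODE vM21 models, H2-K1 spans chr17:33996017-34000347 and H2-D1 chr17:35262730-35267499, so the H2-D1 stretch lies inside the gene model, which begins further upstream.

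H2-K1 and H2-D1 took unequal parts of their summed UMIs from class to class. In NB-like cells H2-K1 made up 12.6% of the UMIs of both genes (8.73 to 17.4). In brain and lung mural cells it made up 24.8% (17.9 to 32.8) and 26.6% (23.5 to 30.02). In lung and brain endothelial-like cells it made up 32.5% (31.1 to 33.9) and 36.6% (34.1 to 39.2). The balance was the other way round in ependymal-like cells (42.7% of them at the edge of the gate), at 71.7% (63.7 to 78.9), and in qNSC/astrocyte-like cells, at 75.0% (71.0 to 78.7). The lung epithelial-like class, a mixture of 21 cells from several clusters, was the only other one with an interval wholly above an even split, at 60.2% (57.4 to 63.0). Read counts near the 3' end are not scaled for length, so the share is compared between classes and does not rank the 2 genes. Reads that map to both genes or to the related H2-Q genes could have been split or dropped by the counting.

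**Figure D1:**
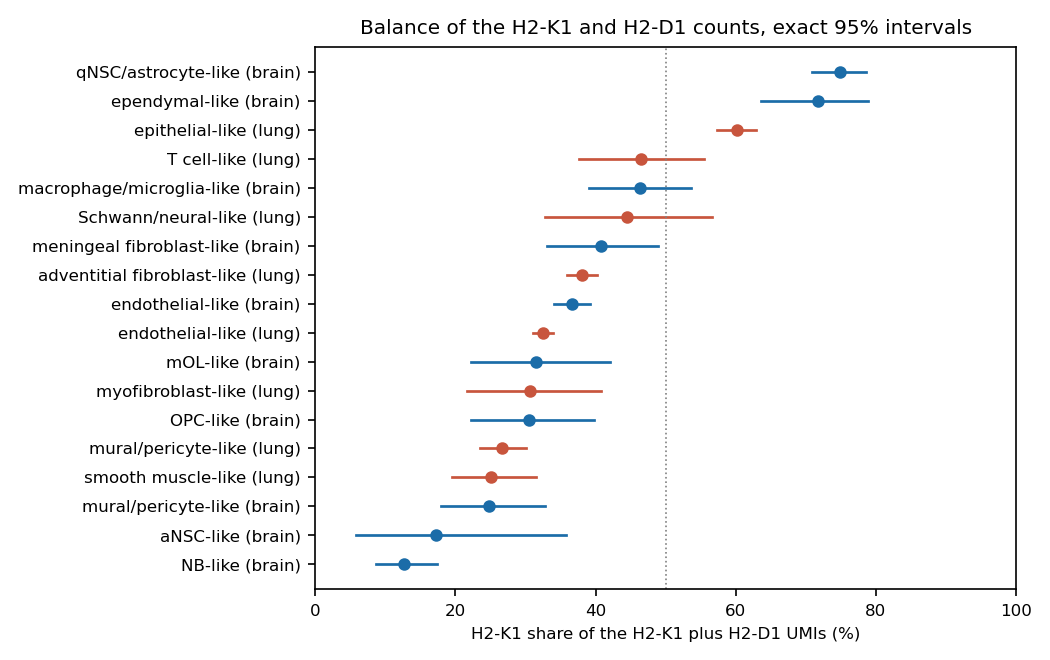
Share of H2-K1 in the summed UMIs of H2-K1 and H2-D1 (horizontal axis, percent) in the marker-gated classes (all but the matrix fibroblast-like class, which had 4 UMIs of both), brain in blue and lung in red, with Clopper-Pearson 95% intervals as bars. The qNSC/astrocyte-like (75.0%) and ependymal-like (71.7%) classes sit far right of the NB-like class (12.6%).

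B2m, the light chain that every class I heavy chain needs, is encoded at chr2:122147686-122153083 and overlaps the neighbouring gene Patl2. Its stretch before the start is shown because it alone among the 7 members with such a stretch held the letters GAAANNGAA. These letters are a form of the core of the interferon-stimulated response element, and 7.13% of all such stretches held them on either strand. Other forms of that core were not searched for. The B2m stretch lies at chr2:122147437-122147686 on the plus strand, and the capitals mark GAAANNGAA, ATTGG and TGACG.
B2m: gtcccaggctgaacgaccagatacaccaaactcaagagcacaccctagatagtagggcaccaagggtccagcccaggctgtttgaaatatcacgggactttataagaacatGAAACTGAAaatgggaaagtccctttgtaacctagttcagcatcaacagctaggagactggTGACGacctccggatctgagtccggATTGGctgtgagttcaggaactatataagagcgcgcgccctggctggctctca
The motif began 139 bases before the start. No match in another member says only that those exact letters are missing from its window. It does not show that H2-D1, H2-K1 or the others lack an interferon response element. B2m stood at 7.88 CPM in NB-like cells (6.15 to 9.94), 15.6 CPM in aNSC-like cells (7.78 to 27.9) and 61.1 CPM in qNSC/astrocyte-like cells (52.9 to 70.3). Brain mural cells held 174 CPM (136 to 219) and brain endothelial-like cells 625 CPM (581 to 672). Lung mural cells, unlike for the heavy chains, had an interval overlapping that of brain mural cells, at 206 CPM (198 to 215). Lung endothelial-like cells held 493 CPM (469 to 517).

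Tap1, one chain of the peptide transporter, and Psmb8, the immunoproteasome subunit, were close to nil in NB-like and aNSC-like cells. Each had 0.444 CPM in NB-like cells, which was 4 UMIs. In aNSC-like cells neither was counted, which allows up to 4.25 CPM. The qNSC/astrocyte-like class had 7.72 CPM of Tap1, 125% of the level of all kept brain cells, and 4.32 CPM of Psmb8, 29.9% of it. In brain endothelial-like cells Tap1 stood at 44.1 CPM and Psmb8 at 145 CPM, and in lung endothelial-like cells they stood at 26.8 and 175 CPM. Brain mural cells had 19.6 CPM of each gene, and lung mural cells 11.8 CPM of Tap1 and 24.5 CPM of Psmb8. The T cell-like class of the lung held 749 CPM of Psmb8, above every other named class. Both genes lie in the class II region of chromosome 17, Tap1 at 34187553 to 34197225 and Psmb8 at 34197721 to 34201454. Psmb9, on the other strand at 34181987 to 34187764, overlaps Tap1 only where both genes begin, whereas 3' reads come mostly from the far ends. Gm20496 overlaps Psmb8 on the other strand, and its reads cannot be told apart, since the strand setting of the counting is not stated.

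**Figure D2:**
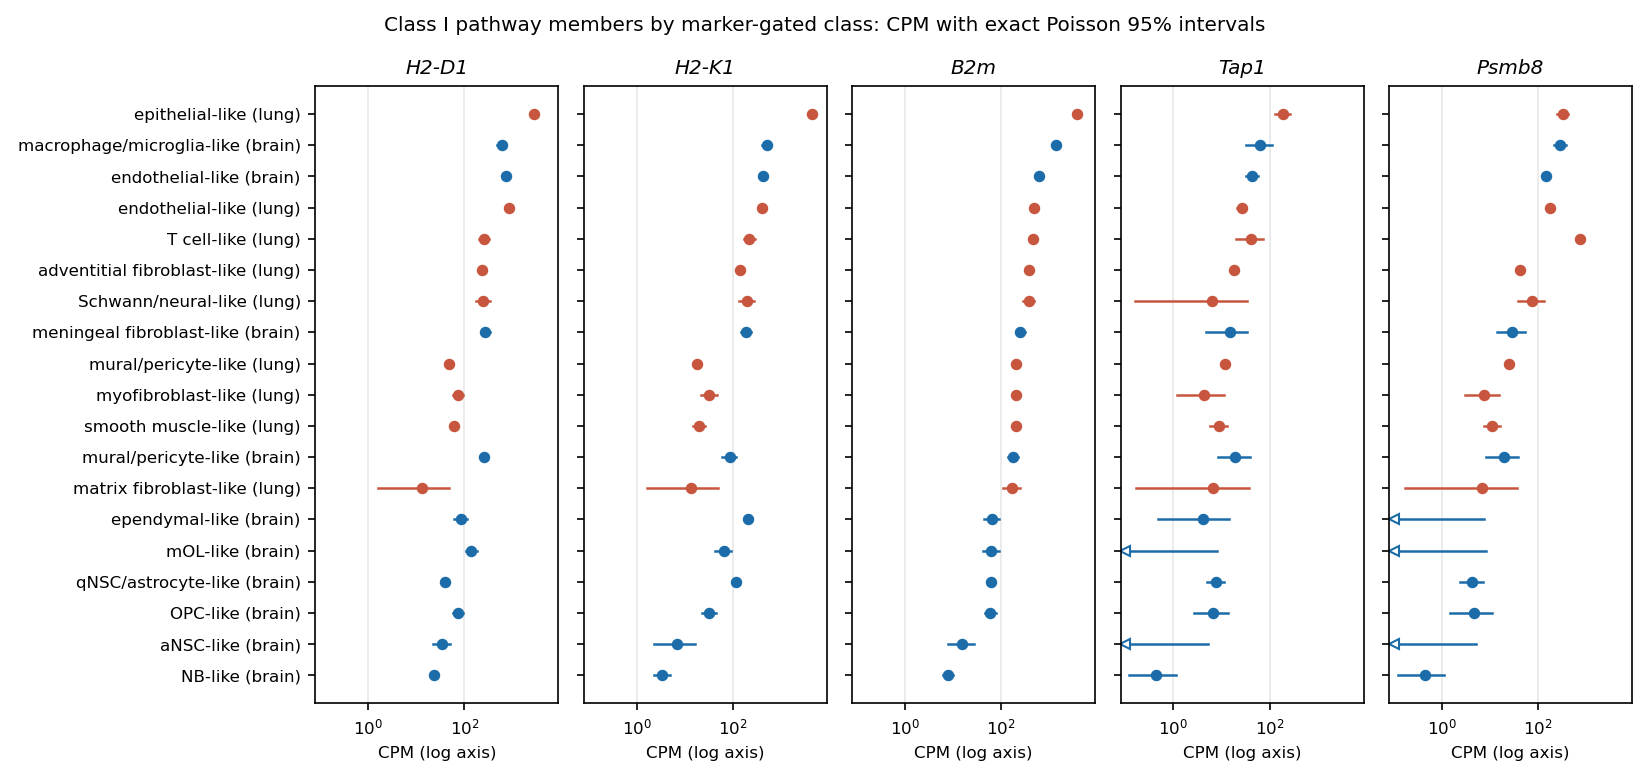
Level of each of the 5 class I pathway genes (CPM, log axis) in each marker-gated class, brain in blue and lung in red, with exact Poisson 95% intervals as bars and open triangles at the axis edge for classes without a UMI. H2-D1 lies at 23.9 CPM in NB-like cells and at 748 and 850 CPM in the endothelial-like cells of brain and lung, within a full range from 13.5 CPM (matrix fibroblast-like) to 2863 CPM (epithelial-like), and Tap1 and Psmb8 lie near the left edge in NB-like and aNSC-like cells.

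The order of the 19 named classes of at least 20 cells was only partly resolved by counting error. Of the 18 steps between neighbours in the order of a gene, the 2 intervals were apart at 4 for H2-D1, 3 for H2-K1, 5 for B2m, 1 for Tap1 and 3 for Psmb8. Beyond the classes above, H2-D1 stood at 595 CPM in brain macrophage/microglia-like cells, 275 CPM in meningeal fibroblast-like cells, 235 CPM in adventitial fibroblast-like cells, 249 CPM in Schwann/neural-like cells and 255 CPM in T cell-like cells. The smooth muscle-like and myofibroblast-like classes of the lung, at 59.9 and 73.7 CPM, were near the mural class, with 56.2% and 60.5% of their cells at the edge of the gate. The 21 epithelial-like cells had 2863 CPM of H2-D1, 4327 CPM of H2-K1, 3765 CPM of B2m, 191 CPM of Tap1 and 329 CPM of Psmb8. This class is a mixture, with 12 cells from cluster 18, which Ccl21a and Krt17 led, and 7 from the Sftpc-led cluster 17. For H2-D1, 5 cells held 277 of its 479 UMIs.

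For the remaining class I levels, OPC-like cells had 32.7 CPM of H2-K1, 59.8 CPM of B2m, 6.54 CPM of Tap1 and 4.67 CPM of Psmb8. In mOL-like cells H2-K1 stood at 64.3 CPM and B2m at 62.05 CPM, 26 of the 28 B2m UMIs came from 1 cell, and neither Tap1 nor Psmb8 was counted, which allows up to 6.65 CPM. Ependymal-like cells had 64.9 CPM of B2m, 4.05 CPM of Tap1 and no Psmb8, which allows up to 6.08 CPM. In OPC-like and ependymal-like cells B2m was thus near its level in qNSC/astrocyte-like cells. However, 1 OPC-like cell held 18 of the 64 B2m UMIs of its class, and 5 ependymal-like cells held 21 of 32. Macrophage/microglia-like cells had 1376.5 CPM of B2m and 64.2 CPM of Tap1, and meningeal fibroblast-like cells 189 CPM of H2-K1, 250.9 CPM of B2m, 14.8 CPM of Tap1 and 29.5 CPM of Psmb8. In the lung, B2m stood at 202 CPM in smooth muscle-like, 204 CPM in myofibroblast-like and 168 CPM in matrix fibroblast-like cells, near the mural class. H2-K1 in these classes was 20.1, 32.5 and 13.5 CPM, Tap1 8.92, 4.34 and 6.73 CPM, and Psmb8 11.2, 7.59 and 6.73 CPM. Adventitial fibroblast-like cells had 144 CPM of H2-K1, 384 CPM of B2m, 18.5 CPM of Tap1 and 42.04 CPM of Psmb8. Schwann/neural-like cells had 199 CPM of H2-K1, with 20 of 32 UMIs in 1 cell, 379.7 CPM of B2m, 6.23 CPM of Tap1 and 74.7 CPM of Psmb8. T cell-like cells had 40.6 CPM of Tap1.

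In the 6 classes given next, shares of cells with a UMI after thinning to equal depth had the same order as the levels within each tissue. When every cell was thinned to 1000 UMIs, H2-D1 was seen in 1.69% of NB-like, 3.92% of qNSC/astrocyte-like, 27.0% of brain mural and 46.0% of brain endothelial-like cells. In the lung it was seen in 4.88% of mural and 51.8% of endothelial-like cells. Without thinning these shares were 9.88%, 11.6%, 48.0%, 78.1%, 15.8% and 92.9%, in the same order of classes. Thinning left out 65 NB-like, 36 qNSC/astrocyte-like, 8 brain endothelial-like, 37 lung mural and 3 lung endothelial-like cells with fewer UMIs. The order of levels was not kept in every class. At 24.4%, brain macrophage/microglia-like cells (595 CPM) were below brain mural cells, and at 4.08%, mOL-like cells were below OPC-like (6.45%) and ependymal-like (6.67%) cells. H2-K1 was seen after thinning in 0.435% of NB-like and 9.73% of qNSC/astrocyte-like cells. Free RNA from broken cells gives UMIs in cells that do not express a gene. The NB-like level of H2-D1 was 25.3% of that of all kept brain cells, against 4.90% for H2-K1, 9.36% for B2m and 7.16% for Tap1. How much of it was free RNA was not tested.

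Against neuroblasts, brain endothelial-like cells were higher for every class I gene. The ratio of levels was 31.3 for H2-D1 (27.0 to 36.5), 125 for H2-K1 (87.3 to 187) and 79.4 for B2m (62.2 to 103). For Tap1 it was 99.3 (36.5 to 378) and for Psmb8 327 (125 to 1212), both resting on 4 UMIs in NB-like cells. All 5 members with at least 20 UMIs in the 2 classes were at least 2-fold higher, where 19.8% of all 12710 genes so counted were, and 29.4% were at least 2-fold lower. Their median log2 ratio was 6.63, against -0.29 over all genes. Brain mural cells were higher than NB-like cells as well, 10.9-fold for H2-D1 (8.52 to 13.8), 24.9-fold for H2-K1 (14.9 to 41.7) and 22.03-fold for B2m (15.6 to 31.1). The 3 members with enough UMIs were all at least 2-fold higher there, against 19.7% of all genes.

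Against qNSC/astrocyte-like cells the endothelial excess was uneven. It was 18.9-fold for H2-D1 (15.7 to 22.9), 10.2-fold for B2m (8.73 to 12.03) and 33.5-fold for Psmb8 (19.4 to 62.6). It was 5.71-fold for Tap1 (3.48 to 9.60) and only 3.65-fold for H2-K1 (3.19 to 4.18). All 5 members with enough UMIs were at least 2-fold higher, against 19.3% of all genes.

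Set against neuroblasts, the qNSC/astrocyte-like class, which pools stem cells and astrocytes, was much higher for some class I genes and little higher for H2-D1. The ratio was 34.4 for H2-K1 (23.8 to 51.3), 17.4 for Tap1 (6.01 to 68.8) and 7.76 for B2m (5.89 to 10.3), but 1.66 for H2-D1 (1.32 to 2.07). The H2-D1 ratio averages over unlike cells. The 101 cells with Thbs4 or Gfap but neither Slc7a10 nor Cxcl14 held 91.0 CPM, above NB-like cells (23.9 CPM). The 414 cells with the reverse held 21.3 CPM, near them. Of 4 members with enough UMIs, 3 were at least 2-fold higher, against 24.4% of all genes. For the members, the aNSC-like class could not be told from NB-like cells by counting error. Its ratios were 1.43 for H2-D1 (0.894 to 2.18), 2.06 for H2-K1 (0.626 to 5.35) and 1.98 for B2m (0.946 to 3.76), and each interval held 1. Of 3 members, 1 passed 2-fold, against 13.0% of all genes.

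Between tissues, endothelial-like cells of lung and brain had like levels of class I. The lung over brain ratio was 1.14 for H2-D1 (1.05 to 1.23), 0.948 for H2-K1 (0.856 to 1.05) and 0.788 for B2m (0.722 to 0.860). It was 0.608 for Tap1 (0.428 to 0.873) and 1.21 for Psmb8 (1.02 to 1.44). No class I gene passed 2-fold in either direction. The 1 member of 6 that did was Cd74, at 10.9-fold (1.82 to 444), where 14.1% of all genes were at least 2-fold higher and 11.1% at least 2-fold lower. Of the 31 Cd74 UMIs in lung endothelial-like cells, 25 came from 1 cell. Library and tissue cannot be told apart in these ratios.

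Mural cells differed between tissues for the heavy chains. The lung over brain ratio was 0.189 for H2-D1 (0.153 to 0.235) and 0.208 for H2-K1 (0.144 to 0.307), that is, brain mural cells were 5.30-fold (4.26 to 6.53) and 4.81-fold (3.26 to 6.93) higher. B2m, at 1.19 (0.939 to 1.53), Tap1, at 0.604 (0.298 to 1.43), and Psmb8, at 1.25 (0.626 to 2.93), had intervals that held 1. Of 7 members with enough UMIs, 2 were at least 2-fold lower and 0 at least 2-fold higher in lung, against 15.9% and 14.1% of all genes.

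Within the lung, endothelial-like cells exceeded mural cells most for the heavy chains. The ratio was 17.4 for H2-D1 (15.8 to 19.1), 23.01 for H2-K1 (19.8 to 26.9) and 7.15 for Psmb8 (6.18 to 8.29). It was smaller for B2m, at 2.39 (2.24 to 2.55), and Tap1, at 2.27 (1.71 to 2.99). Counting class II, 8 of the 9 members were at least 2-fold higher and 1 at least 2-fold lower, against 14.9% and 17.8% of all genes. Among the 8, Cd74, H2-Aa and H2-Ab1 rest on 31, 12 and 13 UMIs in endothelial-like cells. The exception was H2-Eb1, at 0.353 (0.156 to 0.702), the only class II gene of the 4 that was lower, and with classes taken from clusters it stood at 1.14. Without the 75 endothelial-like cells of cluster 17, 4 members with enough UMIs were at least 2-fold higher. Tap1 was then at 1.94, Cd74 at 0.639 and H2-Ab1 at 0.848, and H2-Aa, at 2.30, had too few UMIs to be counted.

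Lung mural cells also exceeded brain neuroblasts, although little for H2-D1. The ratio was 2.05 for H2-D1 (1.75 to 2.41), 5.17 for H2-K1 (3.52 to 7.81) and 26.2 for B2m (20.7 to 33.7). All 7 members with enough UMIs were at least 2-fold higher, against 22.1% of all genes. Cd74 and H2-Eb1 among them rest on 3 and 1 UMIs in NB-like cells. Leaving out the 80 mural cells of cluster 13 took H2-D1 to 1.64. This comparison crosses the 2 libraries, and library and tissue cannot be told apart in it.

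**Figure D3:**
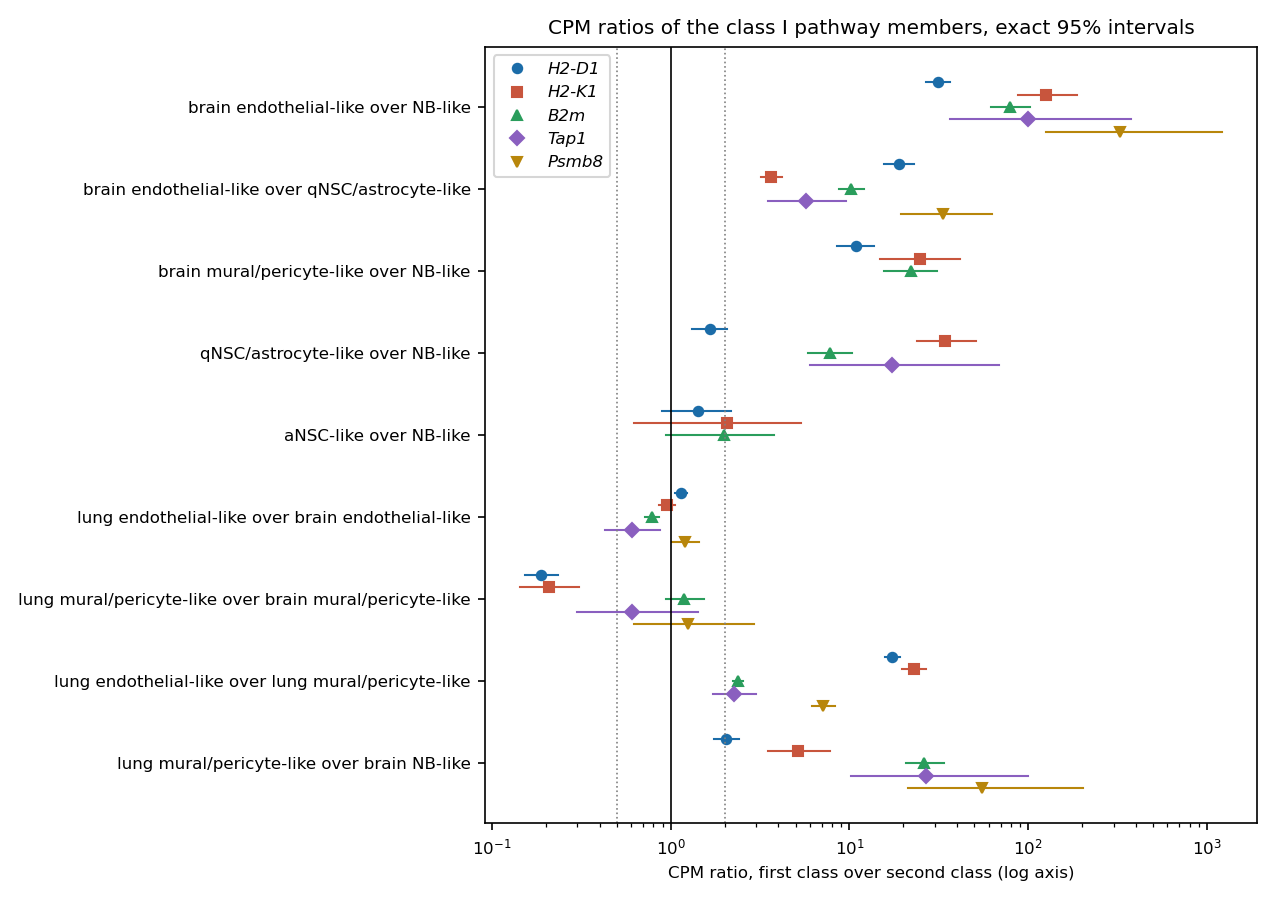
Ratio of the CPM level of each class I pathway gene between 2 classes (log axis) for the 9 comparisons, with a colour and symbol for each gene, exact conditional binomial 95% intervals as bars and dotted lines at 2-fold. The endothelial-like over NB-like ratios of the class I genes (31.3 for H2-D1, 125 for H2-K1) are far right of 1, while those between lung and brain endothelial-like cells (1.14 and 0.948) are close to it.

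Class I varied inside the gated classes too. Among qNSC/astrocyte-like cells, 101 cells had Thbs4 or Gfap UMIs and none of Slc7a10 or Cxcl14, and 414 had the reverse. Gfap and Thbs4 are found in stem cells of the ventricular zone and in reactive or fibrous astrocytes, and Slc7a10 and Cxcl14 in parenchymal astrocytes. H2-D1 stood at 91.0 CPM in the first set and 21.3 CPM in the second, a ratio of 4.27 (2.56 to 7.10). H2-K1 was at 164 and 104 CPM, a ratio of 1.58 (1.15 to 2.14), and B2m at 96.8 and 46.1 CPM, a ratio of 2.10 (1.35 to 3.19). The difference was thus widest for H2-D1, in the same direction as in clusters 5 (led by Gfap and Thbs4, 84.6 CPM) and 2 (led by Htra1, F3 and Cxcl14, 19.4 CPM). H2-K1 in these clusters was at 136 and 121 CPM. The median UMIs of the 2 sets were 3407 and 3874, and no test between them was possible with 1 library.

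Lung mural cells were divided in the same way. The 80 mural cells of cluster 13, which Rgs5, Kcnj8 and Abcc9 led, held 331 CPM of H2-D1 (274 to 395), 145 CPM of H2-K1 (108 to 189) and 626 CPM of B2m (547 to 712). The 1377 mural cells of cluster 0 held 33.8 CPM of H2-D1 (29.9 to 38.2), 10.2 CPM of H2-K1 (8.05 to 12.7) and 191 CPM of B2m. Rgs5, Kcnj8 and Abcc9 are pericyte genes and were among the leading genes of brain mural cells as well, where H2-D1 was 259 CPM. For H2-D1 the interval of cluster 13 overlapped that of brain mural cells, and that of cluster 0 lay far below it. For B2m it was cluster 0 that was nearer to brain mural cells (174 CPM), and cluster 13 was above both.

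Lung endothelial-like cells varied less, apart from 1 small cluster. H2-D1 stood at 756 CPM in cluster 4, which Vwf and Lyve1 led, and at 724 CPM in cluster 10. The 75 endothelial-like cells of cluster 17 held 1648 CPM of H2-D1 (1523 to 1781), 1229 CPM of H2-K1 (1121 to 1345) and 1084 CPM of B2m (983 to 1193). Cluster 17 as a whole was led by Sftpc, a gene of alveolar epithelium, and Fabp4, a gene of capillary endothelium. Without its cells, the lung over brain ratio of endothelial-like cells became 0.998 for H2-D1, 0.701 for H2-K1 and 0.665 for B2m. Endothelial-like cells with Ednrb or Apln UMIs (337 cells), genes of capillary endothelium, had H2-D1 at 861 CPM against 832 CPM in the 253 others, a ratio of 1.04 (0.960 to 1.12). H2-K1 was lower in them, at 353 against 494 CPM, a ratio of 0.714 (0.641 to 0.795). Among adventitial fibroblast-like cells, H2-D1 ran from 30.1 CPM in cluster 14 and 141 CPM in cluster 1 to 1375 CPM in cluster 16, which Ptn, C3 and Ccl11 led.

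**Figure D4:**
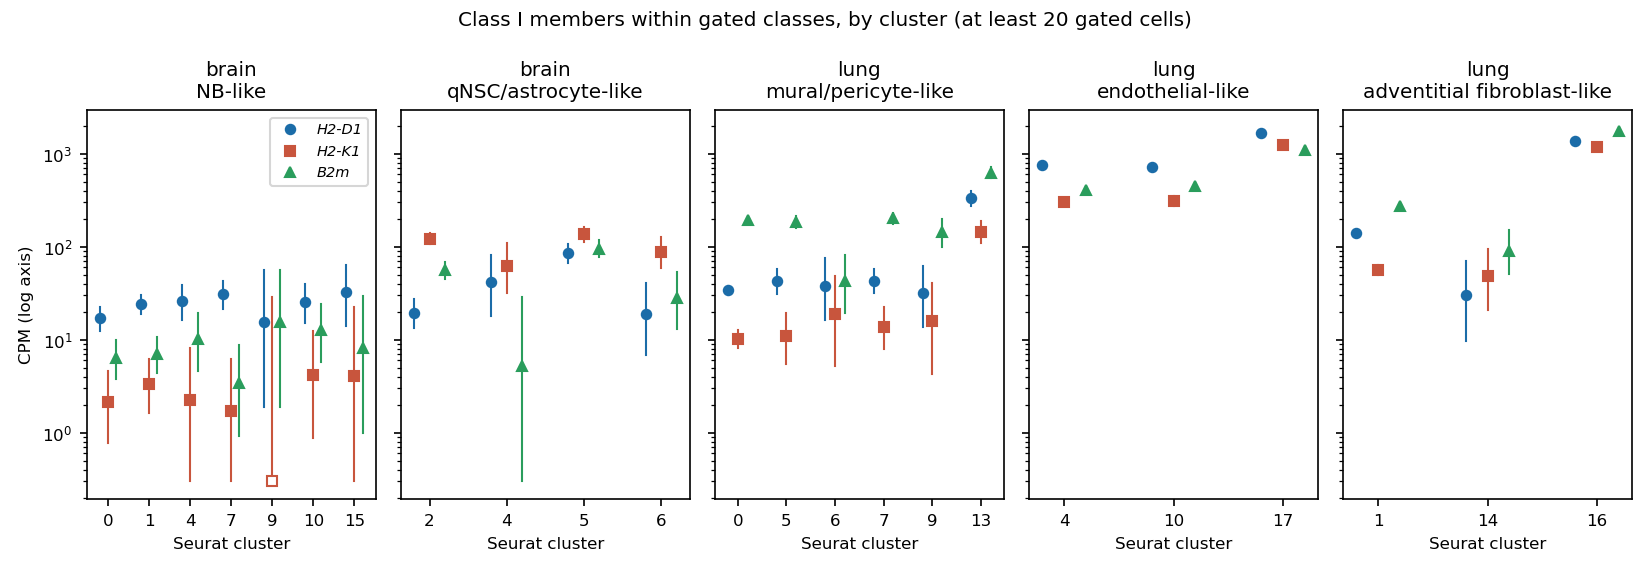
Levels (CPM, log axis) of H2-D1, H2-K1 and B2m in the clusters with at least 20 gated cells that make up a class, with exact Poisson 95% intervals as bars and open symbols where no UMI was counted. In lung mural cells cluster 13 (331 CPM of H2-D1) stands above cluster 0 (33.8 CPM), and in lung endothelial-like cells cluster 17 (1648 CPM) stands above clusters 4 and 10 (756 and 724 CPM).

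Class II was all but missing from neuroblasts, stem cells and brain endothelial-like cells, and low in the vessel cells of the lung. In NB-like cells 3 UMIs of Cd74, 0 of H2-Aa, 1 of H2-Ab1 and 1 of H2-Eb1 were counted. In aNSC-like cells none was counted, which allows up to 4.25 CPM for each gene. The qNSC/astrocyte-like cells had 4, 1, 5 and 0 UMIs, brain endothelial-like cells 1, 0, 1 and 1, and lung endothelial-like cells 31, 12, 13 and 9. T cell-like cells of the lung, which should lack class II in the mouse, had 3 Cd74 UMIs, or 11.1 CPM. How much of the class II counts in these classes was free RNA was not tested. With so few UMIs, differences among these classes were not read. The OPC-like, mOL-like and meningeal fibroblast-like classes had 0 to 4 UMIs of each class II gene, and the smooth muscle-like, myofibroblast-like, matrix fibroblast-like and Schwann/neural-like classes 0 to 7. Adventitial fibroblast-like cells had 12 of Cd74, 6 of H2-Aa, 8 of H2-Ab1 and 14 of H2-Eb1.

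H2-Aa encodes the alpha chain that pairs with H2-Ab1. The stretch before its start, at chr17:34287824-34288073 on the minus strand, is shown because it holds the letters of a class II promoter's best known elements, CCAAT (here as ATTGG) and TGACG (also as CGTCA), which capitals mark.
H2-Aa: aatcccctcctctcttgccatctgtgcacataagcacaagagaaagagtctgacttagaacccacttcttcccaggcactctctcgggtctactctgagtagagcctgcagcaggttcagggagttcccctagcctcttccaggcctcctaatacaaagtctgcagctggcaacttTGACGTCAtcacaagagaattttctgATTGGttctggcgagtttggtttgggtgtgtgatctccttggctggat
H2-Aa spans chr17:34282744-34287823, H2-Ab1 chr17:34257689-34269419 and H2-Eb1 chr17:34305867-34316674, and H2-Eb1 overlaps Gm20513 on the other strand. The H2-Eb1 stretch held CCAAT on both strands, that of Tap1 held CCAAT and TGACG, and that of Psmb8 held none of the motifs.

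In a few classes 1 class II gene was ahead of the others. Lung mural cells had 83 UMIs of H2-Eb1, or 7.60 CPM (6.06 to 9.43), beside 23 of Cd74, 8 of H2-Aa and 13 of H2-Ab1. In lung mural cells with fewer than 10 class II UMIs, H2-Eb1 made up 65.4% of the class II UMIs and Cd74 18.1%. Brain mural cells had 6 UMIs of H2-Eb1, or 14.7 CPM (5.38 to 31.9), with 3 of H2-Ab1 and 0 of the others. Ependymal-like cells had 14 UMIs of H2-Ab1, or 28.4 CPM (15.5 to 47.6), which was 73.7% of their class II UMIs. These makeups differ from that of cells rich in class II, where Cd74 was foremost, at 46.7% in the brain and 45.6% in the lung, and H2-Eb1 made up 15.0% and 18.4%. The makeups of brain mural and ependymal-like cells rest on 9 and 19 UMIs.

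Nearly all class II UMIs lay in a handful of cells. In the brain, 2 cells with at least 10 class II UMIs held 1215 of 1282 (94.8%), and in the lung 51 cells (0.909% of those kept) held 8740 of 9048 (96.6%). Class I was spread far more evenly. Class I UMIs were seen in 34.8% of brain and 73.7% of lung cells, and as many top cells (2 and 51) held 3.04% and 26.1% of them. Any class II UMI was seen in 1.37% of brain and 5.40% of lung cells.

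**Figure D5:**
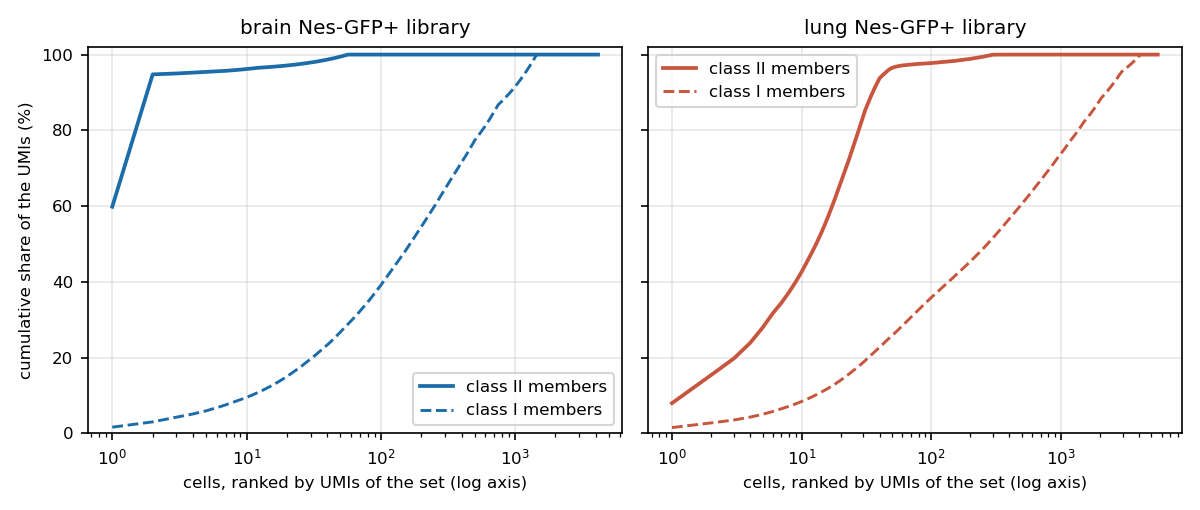
Share of all class I (member) and class II UMIs (vertical axis, percent) held by the cells with the most of them, against the number of such cells (horizontal axis, log), in brain and lung. The 2 richest brain cells hold 94.8% and the 51 richest lung cells 96.6% of class II UMIs, against 3.04% and 26.1% for class I.

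The 2 brain cells carried immune cell genes. Both had UMIs of Ptprc (CD45), Lyz2, Mgl2, Cd209a and Ciita, the class II transactivator, and neither had Nes UMIs, against 18.7% of the other brain cells. A single one of them passed the macrophage/microglia-like gate, and it held 200 of the 206 Cd74, all 73 H2-Aa, all but 1 of the 103 H2-Ab1 and all 73 H2-Eb1 UMIs of that class. The class, that cell included, stood at 513 CPM of H2-K1 and 286 CPM of Psmb8.

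In the lung most cells rich in class II carried epithelial genes. Epcam, an epithelial adhesion gene, was seen in 43 of the 51 (84.3%), against 0.396% of the other cells. Krt17 was seen in 37, the chemokine gene Ccl21a in 35, Krt5 in 34, the cytokine gene Il7 in 34 and Trp63, a basal epithelial regulator, in 27. Aire, in 4, and Psmb11, in 3, are best known from thymic epithelium, and 0.0180% and 0.108% of the other cells had them. Ptprc was seen in 5 and Sftpc in 7. These genes were chosen after their values were seen, and the origin of the cells was not tested. Ciita was seen in 19 (37.3%, against 0.144% of the others) and H2-DMa, which helps load class II, in 33. Nes was seen in 7 (13.7%, against 65.1% of the others).

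Of these 51 cells 35 made up the whole of 1 cluster, cluster 18, which held 6487 class II UMIs (71.7% of those in the lung). Its levels were 9172 CPM of Cd74, 3393 CPM of H2-Aa, 3788 CPM of H2-Ab1 and 3822 CPM of H2-Eb1. Class I was high in the same cells, at 3853 CPM of H2-D1 (3642 to 4074), 5713 CPM of H2-K1 (5455 to 5981) and 5222 CPM of B2m (4975 to 5478). Cluster 11 held a further 1824 class II UMIs (20.2%) with 5 such cells, and cluster 17 held 413 (4.56%) with 9. By gate, 20 of the 51 were epithelial-like, 2 endothelial-like, 2 B cell-like, 2 macrophage/microglia-like and 25 ungated. The epithelial-like class, with 8163 CPM of Cd74, drew 12 of its 21 cells from cluster 18, and its own best-marking genes, led by Sftpc, came with 57.1% of its cells at the edge of the gate.

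Most other genes of the class I pathway were also higher in endothelial-like cells than in neuroblasts of the brain. The lists below were counted by genes at least 2-fold apart with at least 20 UMIs in the 2 classes. All 5 other class I heavy chains so counted were higher in endothelial-like cells, H2-T23 by 45.7-fold (33.4 to 63.6). Of 7 peptide loading genes 5 were higher, among them Tap2, the other transporter chain (80.2-fold), and Erap1, which trims peptides (56.5-fold), while the general chaperones Calr and Canx were at 1.85 and 1.17. Of the 4 other immunoproteasome genes 3 were higher (Psmb9 306-fold, 81.9 to 2566), and 0 of the 3 standard subunits they replace were (Psmb5 0.989, Psmb6 0.804, Psmb7 0.631). Of 24 interferon receptor and response genes 21 were higher and 0 lower, with Ifit1 at 1383-fold (245 to 54908) and Irf7 at 269.9-fold (89.9 to 1330). These 3 folds rest on 2, 1 and 3 UMIs in NB-like cells. Of 7 measured transactivators of MHC genes, 1 was higher (Rfx5 4.11-fold) and 2 lower (Nfyb 0.357), and of 4 other class II pathway genes 2 were higher and 2 lower. Of 7 costimulation genes 2 had enough UMIs, and both were higher, Cd40 at least 181-fold and Icam1 at least 53.5-fold, given 0 UMIs in NB-like cells and a floor of 3. The backgrounds are the 19.8% and 29.4% given above. In brain mural over NB-like cells, where 19.7% of all genes were higher, 3 of 5 heavy chains (H2-Q7 121-fold), 4 of 6 peptide loading genes (Tap2 94.7-fold) and 10 of 14 interferon genes were higher, and none of these was lower. Of 3 immunoproteasome genes 1 was higher and 1 lower there (Psme1 0.366), and of 6 transactivators 0 were higher and 1 lower, where 24.2% of all genes were lower.

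In qNSC/astrocyte-like cells over NB-like cells the pathway was split. Of 7 peptide loading genes 6 were higher (Tap2 25.1-fold, Erap1 23.4-fold, Tapbp 3.81-fold), and 0 of 3 other heavy chains were (H2-T22 1.37, H2-T24 1.04, H2-T23 0.829). None of 3 immunoproteasome genes was higher and 1 was lower (Psmb10 1.39, Psme2 0.608, Psme1 0.305). Of 7 transactivators 2 were higher and 3 lower. The share of all genes that were lower was not computed for this comparison, so the lower counts are not read. Of 19 interferon genes 15 were higher, with Gbp7 at 25.3-fold and Ifit3 at 15.3-fold, against the 24.4% background. In aNSC-like over NB-like cells 0 of 12 interferon genes were at least 2-fold apart in either direction. All 3 other heavy chains so counted were at least 2-fold lower, at 0.399 for H2-T24 (0.0809 to 1.202), 0.272 for H2-T23 (0.00674 to 1.59) and 0.224 for H2-T22 (0.00558 to 1.3001), and each interval held 1. In the same comparison 1 of 5 peptide loading genes (Tapbpl) and 1 of 3 immunoproteasome genes (Psme1, 0.495, 0.379 to 0.637) were lower, where 15.5% of all genes were.

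Between tissues, interferon genes parted from the class I members, peptide loading and immunoproteasome genes in endothelial-like cells, while other heavy chains went both ways. Of 25 interferon genes 17 were at least 2-fold lower and 1 higher in the lung, against backgrounds of 11.1% and 14.1%. Ifit3 stood at 4.47 CPM in the lung and 88.1 CPM in the brain, a ratio of 0.0507, and Ifit1 was at 0.0738. None of the 7 peptide loading or 4 immunoproteasome genes was 2-fold apart. Of 7 other heavy chains 2 were at least 2-fold higher and 2 at least 2-fold lower in the lung. Among them, H2-T23 was lower in the lung at 0.349 (0.295 to 0.413), and H2-Q7 was counted in the lung alone, at 26.8 CPM, which is at least 10.5-fold higher given the floor of 3 UMIs. In mural cells 3 of 6 other heavy chains were lower in the lung and 0 higher. There H2-Q7 went the other way, at 0.730 CPM in lung and 80.7 CPM in brain, a ratio of 0.00909 (0.00363 to 0.0201). H2-Q6 and H2-Q7 are near copies of each other, and reads shared between them are uncertain. In lung over brain mural cells 3 of 6 peptide loading genes were lower (Tap2 0.300, Tapbp 0.377), and interferon genes went both ways, 5 higher (Irf8 22.1-fold, Irf1 5.75-fold) and 3 lower of 26, shares near the backgrounds of 14.1% and 15.9%. In lung endothelial-like over lung mural cells, where 14.9% of all genes were higher and 17.8% lower, 5 of 7 heavy chains, 3 of 7 peptide loading and 3 of 4 immunoproteasome genes (Psmb9 15.9-fold) were higher, none of them lower, and of 26 interferon genes 9 were higher and 4 lower. In lung mural over brain NB-like cells 22 of 26 interferon genes were higher (Iigp1 829-fold, on 1 UMI in NB-like cells) and 0 lower, while 2 of 5 heavy chains were higher and 1 lower, where 22.1% and 29.8% of all genes were.

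Genes with the pattern most like a member were sought across the 19 classes by Pearson's r of log2(CPM + 10). The points share 2 libraries and differ in depth, so r is a description. For B2m, the non-member genes with the highest r were H2-T22 (0.887), Bst2 (0.887), Vamp8 (0.886), Rnaset2a (0.881) and Ctsc (0.878). Among members, B2m had r of 0.898 with Tap1, 0.853 with Psmb8, 0.829 with H2-D1 and 0.814 with H2-K1. For H2-Aa they were Cbr2 (0.977), Gm4951 (0.970), H2-DMa (0.957), Lyz2 (0.944) and Napsa (0.930), beside 0.988 with H2-Ab1 and with Cd74 and 0.980 with H2-Eb1. The epithelial-like and macrophage/microglia-like classes were the 2 with the highest class II levels, and how far the class II values of r depend on them was not tested. In the macrophage/microglia-like class 1 cell held 200 of the 206 Cd74 UMIs.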

How the data were processed

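The 2 libraries were deposited by the authors as UMI counts per gene and cell, not normalized. Per the labels and processing notes, reads were aligned to mm10 with STAR 2.7.1a and counted with featureCounts 1.6.4 and UMI-tools 1.0.0. The annotation version and strand setting are not given in the sources used here. Cells with more than 200 and fewer than 4000 genes and under 40% mitochondrial counts were kept, which follows the study. Doublets were kept, and removing the 44 brain and 69 lung cells that Scrublet called was an alternative. Classes came from marker gates, clusters from Seurat 5.3.0 in R 4.3.3 (resolution 0.8, 20 components), and sums and intervals from Python 3.11.15 with numpy 2.4.6 and scipy 1.17.1. A gene was assessed in a comparison with at least 20 UMIs in both classes together, and 3 UMIs stood in for 0 in bounds. The rule for named genes took all 9 members in every class, and of each other gene list the number past 2-fold with up to 3 of the largest and 3 of the smallest ratios. The members and lists were chosen with earlier results of these data known. The scripts were tested on simulated data. No p-value was computed, as there was 1 library a tissue. Promoters came from RefSeq (GRCm38.p6), gene models from GENCODE vM21.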

Additional observations from a re-analysis of the deposited data

Results flagged for a closer look

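H2-D1 differed between tissues in 1 of the 2 vessel classes and little in the other. The lung over brain ratio was 1.14 in endothelial-like cells and 0.189 in mural/pericyte-like cells. The difference between the 2 ratios was not tested, since there was 1 library of each tissue. Without the lung endothelial-like cells of cluster 17 the first ratio was 0.998, and without the lung mural cells of cluster 13 the second was 0.151. The mural cells of cluster 13 had an H2-D1 interval that overlapped that of brain mural cells, as given above, so the second ratio depends on the makeup of the lung class.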

How the results depend on the processing

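Of 148 recomputed counts of members past 2-fold, 132 stayed within 1.5 times the reported count and 16 moved. For aNSC-like over NB-like cells the count of 1 became 2 with mitochondrial counts under 20%, with more than 500 genes, with at least 4 markers, without Scrublet calls and at 1.5-fold, and 0 with a lead of 1 marker, with the mean over cells and at 3-fold. For lung over brain endothelial-like cells the count of 1 became 4 with classes from Seurat clusters, and 0 without cells with immune marker UMIs, with 10% free RNA subtracted, without cluster 17 and without cells with at least 10 class II UMIs. For lung endothelial-like over mural cells the count of 8 became 5 with free RNA subtracted, 4 without cluster 17 and 5 without cells with at least 10 class II UMIs. In the last 2 settings H2-Aa stayed above 2-fold (2.30 and 3.68) and left the count because it fell under 20 UMIs. In that comparison Cd74 turned from 4.38 to 0.639 without cluster 17 and to 0.711 without cells with at least 10 class II UMIs, H2-Ab1 from 3.25 to 0.848 without cluster 17, and H2-Eb1 from 0.353 to 1.14 with Seurat clusters. Of the ratios, 664 kept their place, 46 moved and 4 reversed. Of the shares of cells with a UMI, 31 moved beyond their interval and 26 did not when cells were thinned to 2000 in place of 1000 UMIs, and all 9 shares of genes past 2-fold moved when any gene with a UMI was counted. Leaving out clusters 13 and 17 and cells with at least 10 class II UMIs were alternatives chosen after seeing the data. Median-of-ratios scaling moved the median of all genes by over 0.1 on the log2 scale in 4 comparisons (-0.24 for brain endothelial-like, -0.12 for brain mural, -0.18 for qNSC/astrocyte-like and -0.27 for lung mural cells, each over NB-like cells). No paired analysis was possible because each tissue had 1 library and the labels carry no replicate numbers. Class II in NB-like, aNSC-like, qNSC/astrocyte-like and brain endothelial-like cells rests on 5 or fewer UMIs a gene, so depth limits what could be seen there. The causes of these shifts were not tested.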

Other observations

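H2-Ea-ps, annotated as a pseudogene of the class II alpha chain that pairs with H2-Eb1, was counted in the lung library and not in the brain library. C57BL/6 mice, the strain on the label, are known to lack a working copy of this gene, and other strains carry one. In the lung 82 UMIs were counted beside 1545 of H2-Aa, or 5.04% of both (4.03 to 6.22), and 30 of the 51 cells with at least 10 class II UMIs had one. In the brain 0 were counted beside 229 of H2-Aa, which allows up to 1.31%. The brain value rests on 2 cells. With 1 library a tissue, genotype, tissue and cell type cannot be told apart.

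T cell-like cells of the lung (99 cells) had 749 CPM of Psmb8, beside 255 CPM of H2-D1, 221 CPM of H2-K1 and 465 CPM of B2m. For H2-K1, 33 of the 60 UMIs came from 1 cell. Their best-marking genes included Rag1, needed for receptor gene rearrangement, Cd8a and Cd8b1.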
